A study of Mus musculus with 6 samples.

Results

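Kupffer cells are the macrophages that live in the liver sinusoids, and 32 genes that mark them or the monocyte-derived macrophages that can join them were followed in bulk RNA from mouse liver. The members were taken by gene symbol from a fixed list, and all 32 were found among the 22599 genes of the deposited tables. They were ordered here by role into 10 resident Kupffer genes, 10 genes shared by most macrophages, 9 genes of infiltrating monocytes and their recent descendants, and 3 genes of lipid-associated macrophages. The 6 libraries form 2 groups. NcoR1ΔHep livers (n = 3) come from mice whose genotype is labelled as a knockdown of NcoR1 and which the series title describes as a hepatic deletion. Flox livers (n = 3) come from NcoR1fl/fl mice labelled WT. Every title gives 0 h, every treatment label names liver ischemia-reperfusion, and whether the 0 h livers were operated on was not stated. The Cre driver, strain, age and sex were not stated either. Nothing in the labels says that the libraries are separate mice, and p-values therefore cover only the variation among the 6 libraries, which may be technical in part.

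Kupffer cells derive largely from embryonic precursors, renew themselves locally and clear bacteria, aged red cells and apoptotic debris from portal blood. Their survival depends on signalling through the CSF1 receptor. When they are lost or the liver is injured, Ly6C-positive monocytes enter from the blood through CCR2 and can take on macrophage and, with time, Kupffer cell features. NcoR1 is a nuclear receptor corepressor, and the labels place its loss in the liver and not in macrophages as such.

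The libraries held 36975231 to 38470468 counts, and the members took between 0.0421% (NcoR1ΔHep 3) and 0.0949% (flox 1) of them. Ncor1 was at 5.34, 6.63 and 4.93 FPKM in NcoR1ΔHep, against 6.78, 6.70 and 7.72 FPKM in flox, with the NcoR1ΔHep libraries lower in FPKM by a narrow margin. On TMM-scaled CPM the groups overlapped, with 57.3, 75.1 and 62.9 CPM in NcoR1ΔHep, against 69.997, 82.5 and 90.1 CPM in flox. The difference was not called (log2 fold change -0.31, edgeR quasi-likelihood test with Benjamini-Hochberg adjustment, adjusted p = 0.931), so the genotypes rest on the labels. NcoR1ΔHep 1 stood apart by sex-linked transcripts. It had 17138 Xist counts against 6 to 18 in the others, and 20 counts over 4 Y-linked genes, against 4174 to 10122 in the others. Without this library the sign of the log2 fold change differed in 6 members (Folr2, Fcna, Itgax, Plac8, Ms4a6c and Trem2).

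Levels are given in FPKM (the authors' counts scaled by gene length and library total), which allows comparison between genes. Most resident and shared genes were more abundant than most infiltrating genes. Lyz2, lysozyme M, had the highest mean over the 6 libraries of the 32 genes (73.6 FPKM). It was followed by Cd5l (50.9 FPKM), the C1q subunit genes C1qb, C1qa and C1qc (41.9, 41.2 and 38.3 FPKM) and Clec4f (32.9 FPKM). At the other end, 7 genes had a mean below 1 FPKM: Ly6c2, Trem2, Ccr2, Ms4a7, Itgam, Itgax and Cx3cr1. Of these, 5 are in the infiltrating class. All 32 members passed the filter on low counts (at least 10 counts' worth of CPM in 3 libraries).

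**Figure D1:**
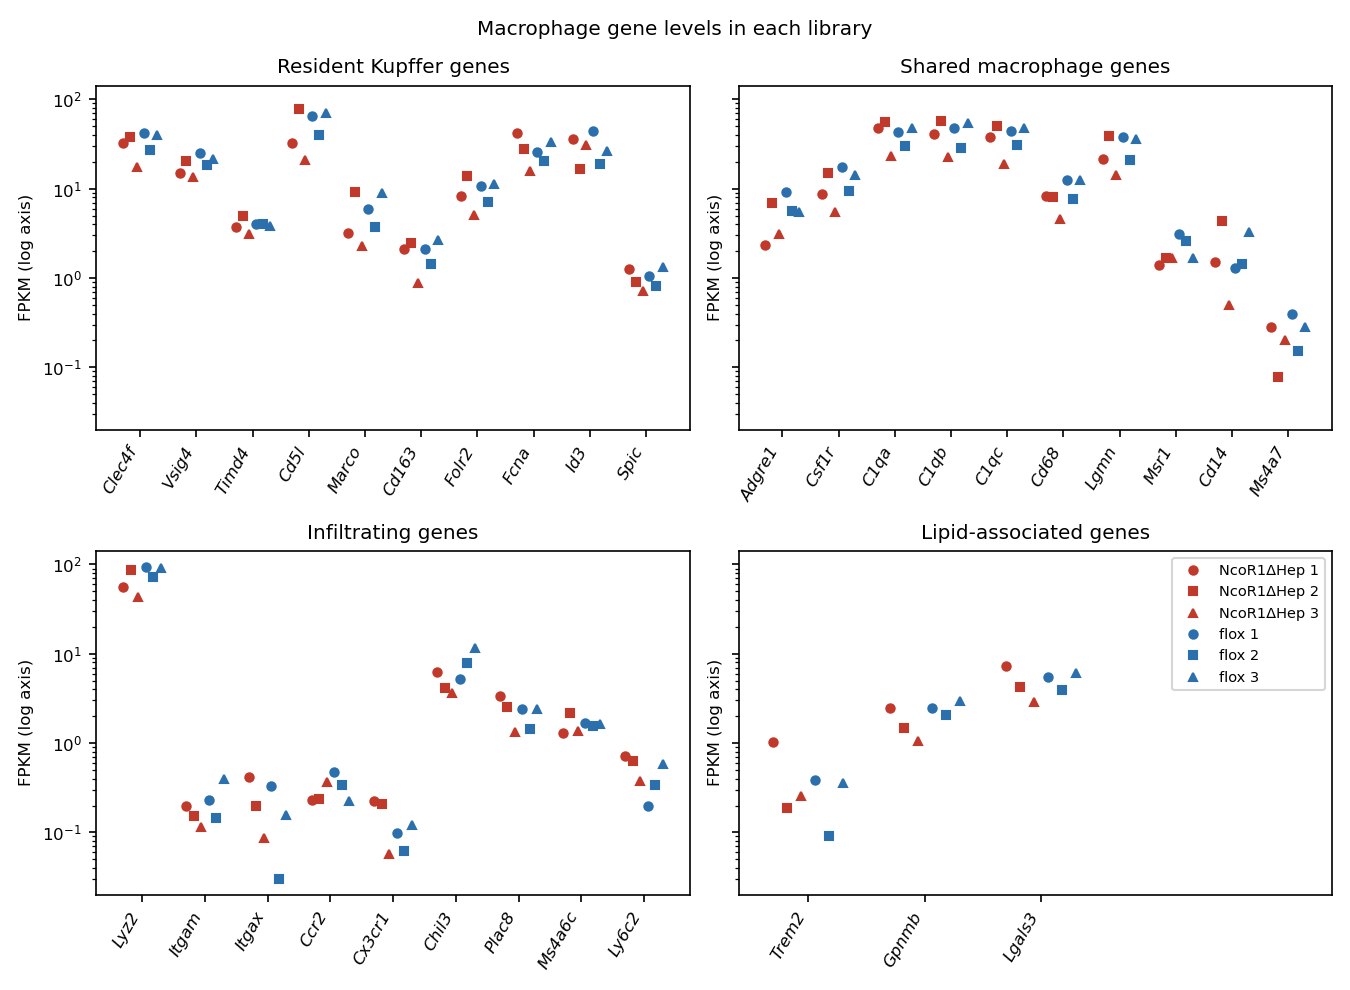
Level of each member in FPKM (log axis) in the 3 NcoR1ΔHep libraries (red) and the 3 flox libraries (blue), with 1 symbol per library and 1 panel per class. In no gene do the red and blue symbols separate, and apart from Lyz2 and Chil3 no infiltrating gene exceeds 3.33 FPKM in any library.

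The first question was whether macrophage genes differed between NcoR1ΔHep and flox livers. None of the 32 members passed the adjusted threshold of 0.05 (edgeR quasi-likelihood test with Benjamini-Hochberg adjustment over 13205 genes; the smallest adjusted p of a member was 0.931), where 0% of all genes tested passed. An unadjusted p under 0.05 was seen in 2 members (6.25%), Cd68 and Chil3, both lower in NcoR1ΔHep, against 3.35% of all genes tested, 1.92% lower and 1.43% higher. DESeq2 called 0 members as well (0.0246% of all genes with an adjusted p), and the same 2 had an unadjusted DESeq2 p under 0.05, against 3.02% of all genes. No member had FPKM ranges that did not overlap between the groups, where 7.56% of all genes tested did not overlap and 4.95% were lower without overlap. The fitted log2 fold change was below 0 in 23 members (71.9%), against 46.5% of all genes tested, and its median was -0.20, against 0.03 over all genes. None of these lower values was called, so a fall in macrophage RNA was not shown. Bulk tissue could in any case not tell fewer macrophages from less macrophage RNA per cell.

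The precision of these comparisons was limited by the spread within groups. The standard error of the log2 fold change was between 0.217 and 0.780, with a median of 0.35. For 12 members the 95% interval lay within a 2-fold change in either direction. For 17 it reached past a 2-fold fall and for 5 past a 2-fold rise, so a change of that size lay inside the interval. In 22 of the 32 the difference between group means of log2(CPM + 0.5) was smaller than the SD within groups.

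**Figure D2:**
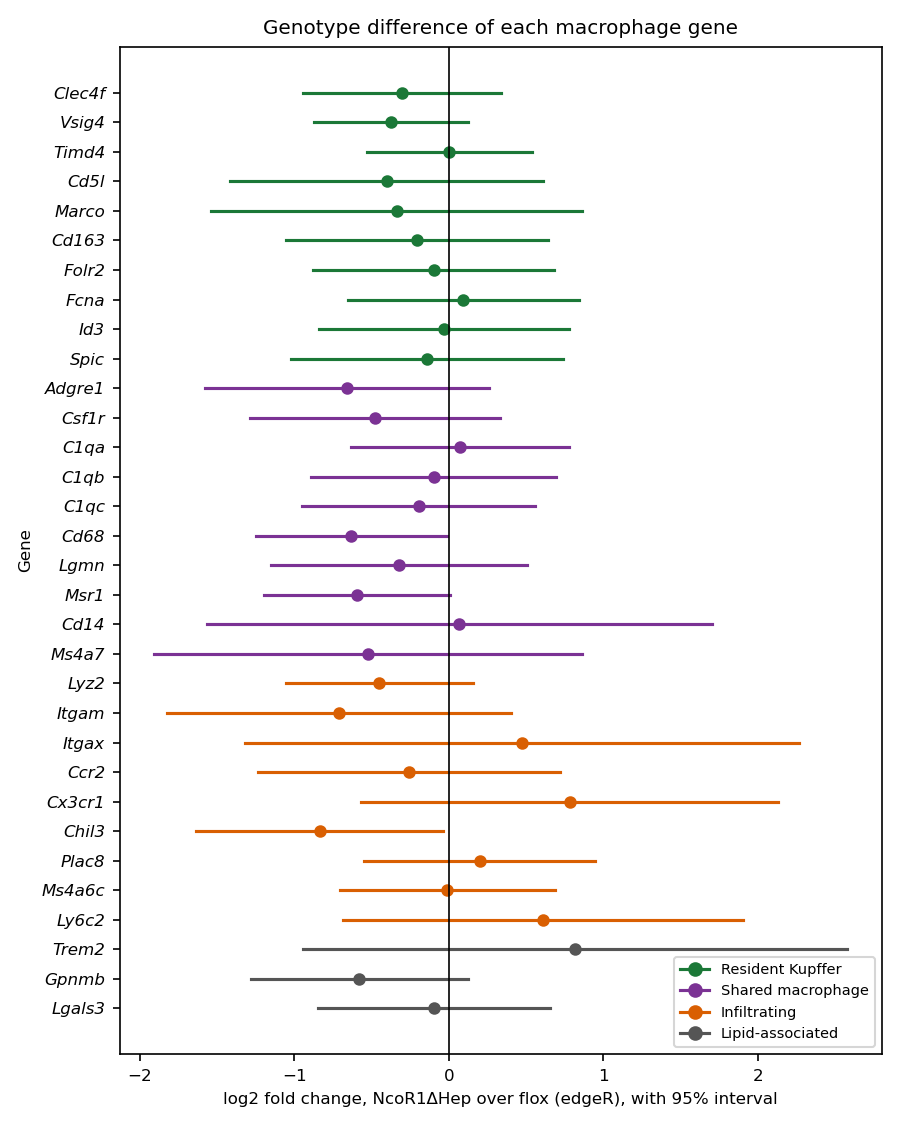
Log2 fold change of each member, NcoR1ΔHep over flox (points), with its 95% interval from edgeR (lines), coloured by class; the vertical line marks no change. The intervals of Cd68 and Chil3 end just below 0 (-0.01 and -0.03), and all others include 0; the intervals are not adjusted for the number of genes.

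Among the resident genes, Clec4f, a C-type lectin that marks Kupffer cells in mouse, was at 32.8, 37.7 and 17.5 FPKM in NcoR1ΔHep 1, 2 and 3, against 42.5, 27.5 and 39.5 FPKM in flox 1, 2 and 3. The lowest library was NcoR1ΔHep 3, while the other 2 NcoR1ΔHep libraries lay inside the flox range. Its log2 fold change was -0.30 (SE 0.28, 95% interval -0.95 to 0.34). Vsig4, a complement receptor that captures opsonised bacteria, was at 14.9, 20.6 and 13.7 FPKM in NcoR1ΔHep, against 25.2, 18.3 and 21.6 FPKM in flox, with NcoR1ΔHep 2 inside the flox range and the other 2 below it (-0.38, SE 0.22). Timd4, a phosphatidylserine receptor for apoptotic cells found on long-resident Kupffer cells, had the narrowest range over the 6 libraries of any member. It was at 3.78, 4.99 and 3.09 FPKM in NcoR1ΔHep, against 4.06, 3.996 and 3.85 FPKM in flox, and its log2 fold change was 0.00 (SE 0.23, 95% interval -0.53 to 0.54). The highest and lowest Timd4 libraries were both NcoR1ΔHep, and they enclosed all flox values.

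Cd5l, which encodes a secreted macrophage protein that limits apoptosis, was at 32.7, 77.3 and 21.02 FPKM in NcoR1ΔHep, against 64.5, 40.1 and 69.9 FPKM in flox. NcoR1ΔHep 2 was the highest library and NcoR1ΔHep 3 the lowest, 3.68-fold apart, and the group means differed less than that: 43.7 ± 29.7 FPKM in NcoR1ΔHep and 58.2 ± 15.8 FPKM in flox (SD, n = 3 each). Its log2 fold change was -0.40 (SE 0.44), and -0.19 without NcoR1ΔHep 1. Marco, a class A scavenger receptor for bacteria and particles, ran in the same way, with 3.23, 9.19 and 2.27 FPKM in NcoR1ΔHep, against 5.92, 3.71 and 9.02 FPKM in flox. Folr2, folate receptor beta, was at 8.29, 13.7 and 5.12 FPKM in NcoR1ΔHep, against 10.8, 7.09 and 11.4 FPKM in flox, and Cd163, the receptor for haemoglobin bound to haptoglobin, at 2.13, 2.44 and 0.880 FPKM in NcoR1ΔHep, against 2.11, 1.45 and 2.70 FPKM in flox. In each of these the groups overlapped. The log2 fold change of Marco was -0.34 (SE 0.52) and -0.07 without NcoR1ΔHep 1, and that of Folr2 was -0.10 (SE 0.34) and 0.02 without it. Fcna, ficolin A of the lectin complement pathway, had its highest level in NcoR1ΔHep 1, with 42.2, 27.8 and 15.8 FPKM in NcoR1ΔHep, against 25.9, 20.5 and 33.3 FPKM in flox; its log2 fold change was 0.09 and -0.21 without NcoR1ΔHep 1.

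The class holds a pair of transcriptional regulators. Id3, a dominant inhibitor of helix-loop-helix factors that Kupffer cells need in mouse, was at 36.3, 16.7 and 31.1 FPKM in NcoR1ΔHep, against 43.9, 19.1 and 26.4 FPKM in flox. It was the only resident gene whose lowest library was not NcoR1ΔHep 3, and it is also made by other liver cells. Spic, an ETS factor of iron-handling macrophages, was at 1.26, 0.910 and 0.720 FPKM in NcoR1ΔHep, against 1.06, 0.821 and 1.32 FPKM in flox, from 34 to 62 counts per library. Over the class, 2 of 10 genes were higher and 8 lower in the fit, 0 were called, and the median log2 fold change was -0.17.

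Shared macrophage genes divided the libraries alike only in part. NcoR1ΔHep 3 was the lowest library in 7 of the 10. NcoR1ΔHep 2, flox 1 and flox 3 were the 3 highest in Csf1r, C1qb, C1qc and Lgmn, and not in the others. Adgre1, which encodes the F4/80 antigen, was at 2.36, 6.99 and 3.14 FPKM in NcoR1ΔHep 1, 2 and 3, against 9.13, 5.66 and 5.48 FPKM in flox 1, 2 and 3. NcoR1ΔHep 1 and NcoR1ΔHep 3 were below all flox libraries, while NcoR1ΔHep 2 was above 2 of them (log2 fold change -0.66, SE 0.40; -0.34 without NcoR1ΔHep 1 and -1.22 without NcoR1ΔHep 2). Csf1r, the receptor for CSF1 and IL-34, was at 8.66, 15.0 and 5.53 FPKM in NcoR1ΔHep, against 17.7, 9.31 and 14.3 FPKM in flox, and its log2 fold change was -0.48 (SE 0.35). Its exons overlap those of Hmgxb3, which had 256 to 451 counts, and the strand setting of the counting was not stated. Lgmn, a lysosomal endopeptidase, was at 21.2, 38.7 and 14.3 FPKM in NcoR1ΔHep, against 37.7, 20.8 and 35.7 FPKM in flox, again highest in NcoR1ΔHep 2 and lowest in NcoR1ΔHep 3.

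Cd68, a lysosomal glycoprotein, was the shared gene with the smallest p. It was at 8.30, 8.04 and 4.53 FPKM in NcoR1ΔHep, against 12.5, 7.71 and 12.4 FPKM in flox, and NcoR1ΔHep 1 and NcoR1ΔHep 2 were just above the lowest flox library. With TMM scaling, which adjusts totals for composition, its CPM was 9.67, 9.89 and 6.28 in NcoR1ΔHep, against 14.0, 10.3 and 15.7 in flox. On that scale the groups did not overlap, by a narrow margin, and Cd68 was the only such member (3.12%, against 8.82% of all genes tested). Its log2 fold change was -0.63 (SE 0.27; edgeR quasi-likelihood test with Benjamini-Hochberg adjustment, adjusted p = 0.931). Msr1, scavenger receptor A, was at 1.40, 1.68 and 1.66 FPKM in NcoR1ΔHep, against 3.11, 2.58 and 1.67 FPKM in flox, with flox 3 level with NcoR1ΔHep 2 and 3 (-0.59, SE 0.26). Ms4a7, a 4-span membrane protein of macrophages, rested on 5 to 26 counts.

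The 3 chains of C1q, the recognition unit of the classical complement pathway, are encoded side by side on chromosome 4 (GENCODE M21, GRCm38), with C1qa at chr4:136895917-136898803, C1qc at chr4:136889804-136893065 and C1qb at chr4:136880129-136886187, all on the minus strand. C1qa was at 48.0, 55.4 and 23.0 FPKM in NcoR1ΔHep, against 43.0, 30.2 and 47.3 FPKM in flox, C1qb at 40.99, 57.7 and 22.5 FPKM in NcoR1ΔHep, against 47.3, 28.4 and 54.7 FPKM in flox and C1qc at 37.8, 50.5 and 18.7 FPKM in NcoR1ΔHep, against 44.5, 30.8 and 47.6 FPKM in flox. Their log2 fold changes were 0.07, -0.10 and -0.20 (SE 0.31, 0.34 and 0.33). The chains were at similar levels within each library. The FPKM ratio of C1qb to C1qa was 0.854, 1.04 and 0.978 in NcoR1ΔHep, against 1.10, 0.940 and 1.16 in flox, and that of C1qc to C1qa was 0.788, 0.911 and 0.813 in NcoR1ΔHep, against 1.03, 1.02 and 1.01 in flox. The C1qc to C1qa ratio was lower in all 3 NcoR1ΔHep libraries than in any flox library, the 1 of 14 ratios computed whose groups did not overlap, and it was not tested. The level of C1qc itself varied 2.70-fold over the 6 libraries, and the NcoR1ΔHep libraries alone spanned all of that range.

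Over the shared class, 2 of 10 genes were higher and 8 lower, with a median log2 fold change of -0.40 (-0.26 without NcoR1ΔHep 1) and 0 called. Markers of sinusoidal endothelial cells had fold changes of the same sign. All 10 of the 10 endothelial markers tested were lower in the fit (median -0.75, and -1.11 without NcoR1ΔHep 1; 0 called), and their summed level was 89.5, 51.0 and 36.0 FPKM in NcoR1ΔHep, against 149.9, 54.6 and 84.5 FPKM in flox. Flox 1 was the highest and NcoR1ΔHep 3 the lowest library of that sum, and none of the 10 was at 0 in any library. Kdr, a VEGF receptor, was at 3.07, 2.15 and 1.91 FPKM in NcoR1ΔHep, against 8.67, 2.84 and 3.41 FPKM in flox (-1.01, SE 0.37), and Pecam1, a junction protein, at 3.52, 2.94 and 1.69 FPKM in NcoR1ΔHep, against 9.70, 3.04 and 3.91 FPKM in flox (-0.98, SE 0.40). The part of endothelial content in the macrophage values was not tested.

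**Figure D3:**
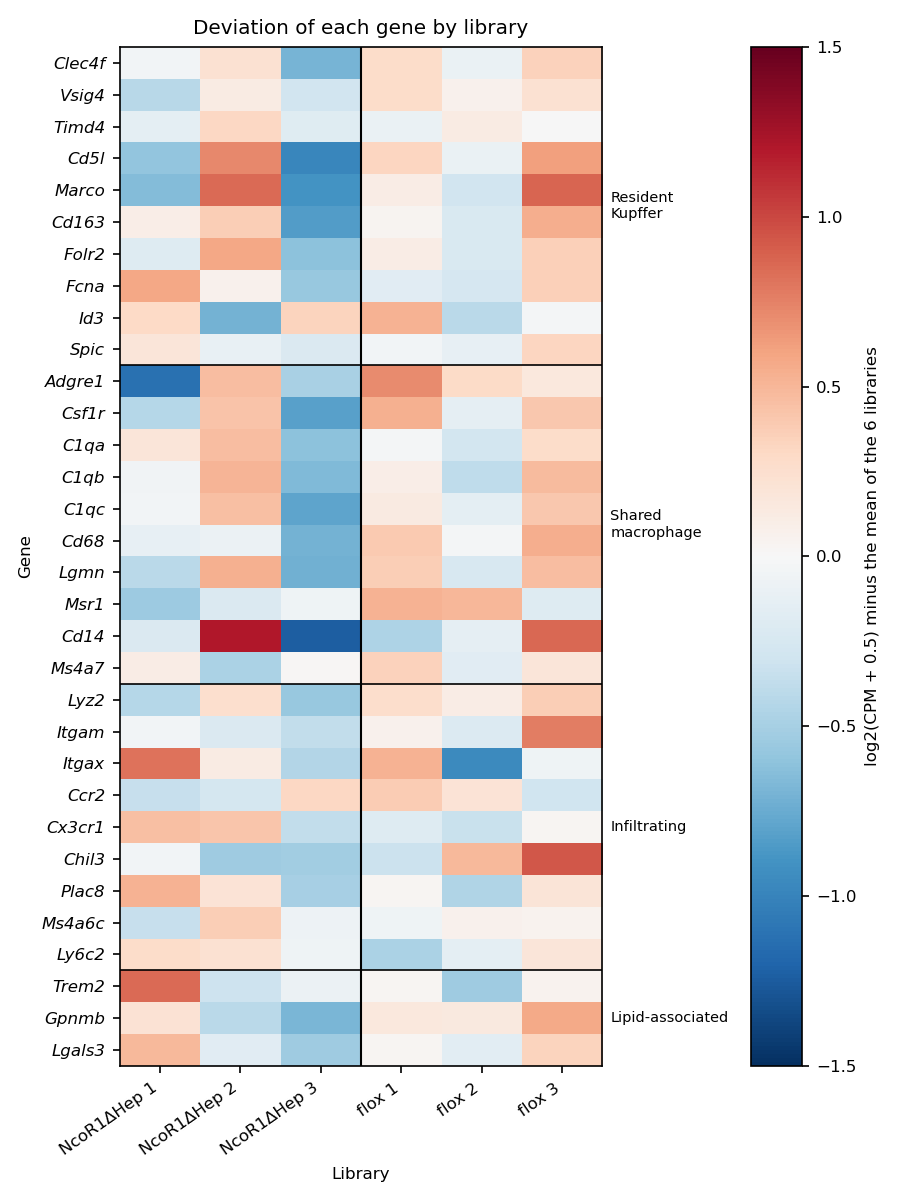
Deviation of each member from its own mean over the 6 libraries, in log2(CPM + 0.5) with TMM scaling (red above, blue below), with the NcoR1ΔHep libraries left of the black line and the flox libraries right of it. NcoR1ΔHep 3 is blue in 29 of 32 genes, NcoR1ΔHep 2 is red in 21, flox 1 in 23 and flox 3 in 27.

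Libraries of the same genotype stood apart in many of these genes. NcoR1ΔHep 3 was the lowest of the 6 libraries in FPKM in 23 of 32 members, and the highest in 0. The 3 highest libraries were NcoR1ΔHep 2, flox 1 and flox 3 in 11 members, among them Clec4f, Vsig4, Csf1r, Folr2, Lgmn and Lyz2. NcoR1ΔHep 3 and flox 2 were the 2 lowest libraries in 15 members. The share of all genes with these orders was not computed. Over all 13205 genes tested, deviations from the group mean correlated between NcoR1ΔHep 3 and flox 2 (0.61). They also did between NcoR1ΔHep 2 and flox 3 (0.31), though not between NcoR1ΔHep 2 and flox 1 (0.02). Deviations from a group mean sum to 0 within each group, so correlations of both signs are built in. Whether this order of libraries is particular to the members was not tested. By the summed FPKM of all 32 genes, the libraries stood at 428, 552 and 260.0 FPKM in NcoR1ΔHep, against 556, 369 and 558 FPKM in flox. NcoR1ΔHep 2 was thus close to flox 1 and flox 3, and NcoR1ΔHep 3 had less than any other library. The members were more widely spread within NcoR1ΔHep than within flox in 25 of 32 (highest over lowest FPKM of the group). Of the 32, 21 were at least 2-fold apart within NcoR1ΔHep, against 10 within flox. These counts were not made over all genes, so whether the wider spread is particular to the members was not tested.

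Relative to Clec4f, some members were near constant and others were not. The FPKM ratio of Folr2 to Clec4f was 0.253, 0.364 and 0.292 in NcoR1ΔHep, against 0.253, 0.258 and 0.288 in flox, and that of Csf1r was 0.264, 0.398 and 0.316 in NcoR1ΔHep, against 0.415, 0.339 and 0.362 in flox. The ratio of Adgre1 to Clec4f was 0.0719, 0.186 and 0.180 in NcoR1ΔHep, against 0.215, 0.206 and 0.139 in flox, so NcoR1ΔHep 1 was low in F4/80 transcript for its Clec4f level. Fcna to Clec4f was the reverse, with 1.29, 0.738 and 0.906 in NcoR1ΔHep, against 0.608, 0.747 and 0.845 in flox. The groups overlapped in all 4 of these ratios.

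Cd14 varied most among the members with over 1 FPKM on average. It encodes the lipopolysaccharide co-receptor, and it was at 1.53, 4.37 and 0.5001 FPKM in NcoR1ΔHep, against 1.28, 1.42 and 3.29 FPKM in flox, an 8.74-fold range. NcoR1ΔHep 2 and flox 3 were the 2 highest libraries for Cd14, Marco, Cd5l, Cd163, Folr2, C1qb and C1qc. Cd14 to Clec4f was 0.0465, 0.116 and 0.0286 in NcoR1ΔHep, against 0.0302, 0.0518 and 0.0834 in flox, and Marco to Clec4f 0.0985, 0.244 and 0.130 in NcoR1ΔHep, against 0.139, 0.135 and 0.229 in flox, so both stood out in those 2 libraries beyond Clec4f. The same 2 libraries were far above the rest in Saa1, an acute-phase gene of hepatocytes, with 20.7, 2092 and 64.4 FPKM in NcoR1ΔHep, against 129, 61.1 and 2427 FPKM in flox; Saa1 was chosen after its values were seen. The division crosses the genotypes, and the part of an acute-phase response in the Marco and Cd14 values was not tested. The log2 fold change of Cd14 was 0.30 without NcoR1ΔHep 1. Without NcoR1ΔHep 2 it was -1.02 and without flox 3 it was 0.64, against 0.07 with all libraries.

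**Figure D4:**
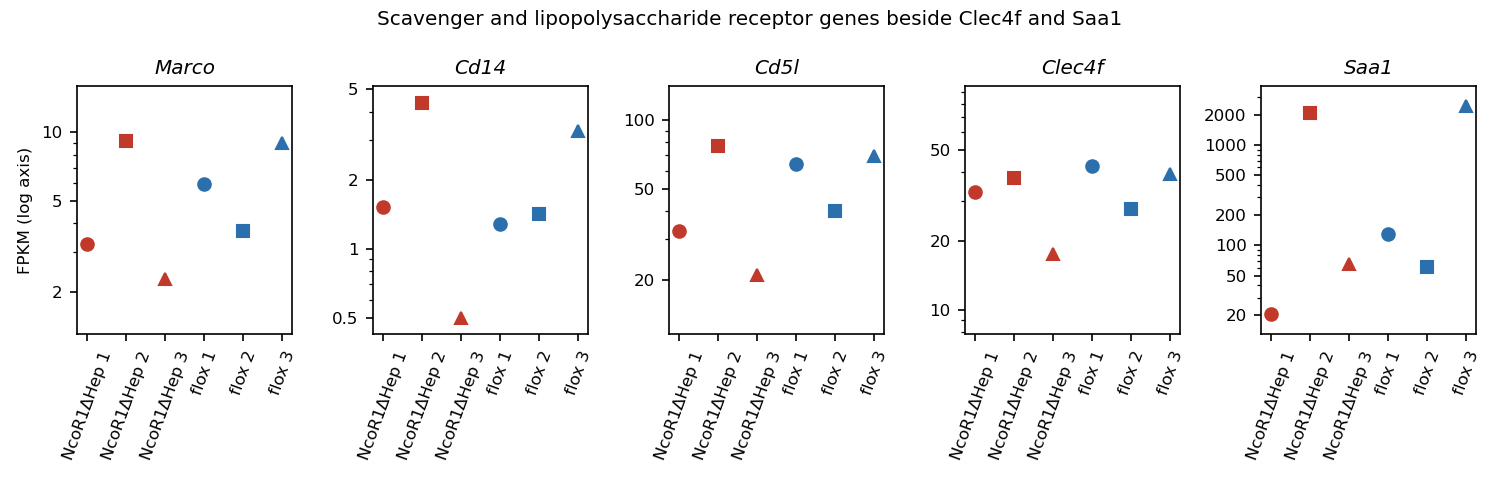
FPKM (log axes, each panel with its own scale) of Marco, Cd14, Cd5l, Clec4f and Saa1 in the 3 NcoR1ΔHep libraries (red, left) and the 3 flox libraries (blue, right). NcoR1ΔHep 2 and flox 3 are the 2 highest libraries for Marco, Cd14, Cd5l and Saa1, while Clec4f is highest in flox 1 (42.5 FPKM).

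The sequences before the start sites of genes that ranked the libraries alike are shown because macrophage promoters often lack a TATA box and carry sites for PU.1, the ETS factor that sets macrophage fate. C1qb stands for the C1q genes, and Marco and Cd5l for the genes highest in NcoR1ΔHep 2 and flox 3. Each line gives 250 bases 5′ of the RefSeq start site on the gene's own strand (GRCm38.p6), with GAGGAA, the core of the PU.1 site, or its reverse complement TTCCTC in capitals. The windows are chr4:136886201-136886450 (minus strand), chr1:120505025-120505274 (minus strand) and chr3:87357631-87357880 (plus strand).
C1qb: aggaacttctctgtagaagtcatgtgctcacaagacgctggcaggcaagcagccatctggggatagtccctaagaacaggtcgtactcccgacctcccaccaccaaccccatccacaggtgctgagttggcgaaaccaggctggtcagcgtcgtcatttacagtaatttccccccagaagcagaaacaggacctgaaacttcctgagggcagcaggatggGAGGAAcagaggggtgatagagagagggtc
Marco: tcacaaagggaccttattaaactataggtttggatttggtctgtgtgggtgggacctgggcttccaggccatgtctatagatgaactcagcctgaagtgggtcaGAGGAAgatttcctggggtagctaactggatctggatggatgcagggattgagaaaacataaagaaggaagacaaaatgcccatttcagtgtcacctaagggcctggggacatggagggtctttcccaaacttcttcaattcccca
Cd5l: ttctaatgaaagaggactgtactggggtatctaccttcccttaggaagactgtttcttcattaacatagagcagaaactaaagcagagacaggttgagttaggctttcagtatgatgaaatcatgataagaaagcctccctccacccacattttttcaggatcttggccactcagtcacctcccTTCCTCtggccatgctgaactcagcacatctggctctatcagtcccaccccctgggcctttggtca
The motif starts 30 bases before the start site in C1qb, 146 bases before it in Marco and 66 bases before it, on the opposite strand, in Cd5l. A promoter was searched in 27 members. Of these, 13 held GAGGAA on either strand within the 300 bases from 250 before to 50 after a start site. By window, that was 14 of 32 (43.8%), against 28.3% of all 32851 RefSeq windows. The other members were not searched, and the difference between these shares was not tested. The printed genes all hold the motif, and not all genes that ranked the libraries alike do. Among the other genes highest in NcoR1ΔHep 2 and flox 3, C1qc held 1 match, and Cd163 and Folr2 held 0. Clec4f and Lyz2 held 0 as well. A match describes letters and does not show that the factor binds there.

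The second question was whether resident and infiltrating genes differed from each other between genotypes. Classical monocyte genes were low in every library. Ccr2, the receptor for the monocyte chemokine CCL2, was at 0.232, 0.238 and 0.363 FPKM in NcoR1ΔHep 1, 2 and 3, against 0.474, 0.341 and 0.223 FPKM in flox 1, 2 and 3, from 39 to 85 counts. Ly6c2, the surface protein of classical monocytes, was at 0.721, 0.637 and 0.377 FPKM in NcoR1ΔHep, against 0.199, 0.337 and 0.585 FPKM in flox, from 7 to 25 counts, and its near-identical neighbour Ly6c1 had 3 to 9 counts, so reads may be split between them. Cx3cr1, the fractalkine receptor, was at 0.228, 0.207 and 0.0571 FPKM in NcoR1ΔHep, against 0.0982, 0.0623 and 0.123 FPKM in flox, from 8 to 32 counts. The log2 fold changes of the 3 genes were -0.26, 0.61 and 0.78 (SE 0.42, 0.56 and 0.59), and their groups overlapped.

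Lyz2, which Kupffer cells, monocytes and neutrophils all make, was at 56.4, 85.8 and 43.1 FPKM in NcoR1ΔHep, against 94.4, 71.5 and 90.2 FPKM in flox. It held 81.7% to 89.8% of the summed FPKM of the infiltrating class. Its ratio to Clec4f was 1.72, 2.28 and 2.46 in NcoR1ΔHep, against 2.22, 2.60 and 2.29 in flox, with overlapping groups. The log2 fold change of Lyz2 was -0.45 (SE 0.26). Chil3, a chitinase-like protein of monocytes and activated macrophages, was at 6.22, 4.11 and 3.67 FPKM in NcoR1ΔHep, against 5.24, 7.96 and 11.5 FPKM in flox, lower in NcoR1ΔHep 2 and 3 than in any flox library, with NcoR1ΔHep 1 inside the flox range. Its log2 fold change was -0.84 (SE 0.35; edgeR quasi-likelihood test with Benjamini-Hochberg adjustment, adjusted p = 0.931), and -1.01 without NcoR1ΔHep 1.

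The integrin genes and the remaining monocyte genes had fold changes of either sign. Itgam, the CD11b chain, was at 0.199, 0.155 and 0.114 FPKM in NcoR1ΔHep, against 0.231, 0.144 and 0.399 FPKM in flox, and Itgax, the CD11c chain, at 0.413, 0.198 and 0.0866 FPKM in NcoR1ΔHep, against 0.328, 0.0300 and 0.156 FPKM in flox. Itgax was lowest in flox 2, with 5 counts, and highest in NcoR1ΔHep 1, with 67. Its log2 fold change was 0.47 (SE 0.78) and -0.15 without NcoR1ΔHep 1. Plac8, a small cysteine-rich protein abundant in Ly6C-positive monocytes, was at 3.33, 2.51 and 1.32 FPKM in NcoR1ΔHep, against 2.41, 1.42 and 2.41 FPKM in flox (0.20, SE 0.32; -0.04 without NcoR1ΔHep 1), and Ms4a6c, a 4-span membrane protein of the monocyte lineage, at 1.29, 2.16 and 1.36 FPKM in NcoR1ΔHep, against 1.70, 1.57 and 1.64 FPKM in flox (-0.01, SE 0.30; 0.18 without NcoR1ΔHep 1). Over the class, 4 of 9 genes were higher and 5 lower, with a median log2 fold change of -0.01 and 0 called.

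As a level per library, the mean log2(CPM + 0.5) of the resident class was 4.13, 4.46 and 3.72 in NcoR1ΔHep, against 4.36, 4.07 and 4.58 in flox, and that of the infiltrating class 1.90, 1.87 and 1.52 in NcoR1ΔHep, against 1.82, 1.67 and 2.04 in flox. The resident class differed by -0.23 and the infiltrating class by -0.08 (NcoR1ΔHep minus flox), against SDs within groups of 0.32 and 0.20. Resident minus infiltrating was 2.23, 2.60 and 2.21 in NcoR1ΔHep, against 2.53, 2.40 and 2.54 in flox, a difference of -0.15 against an SD of 0.16. NcoR1ΔHep 2 had the highest value and NcoR1ΔHep 1 and 3 the lowest, so the groups overlapped. When the classes were summed in FPKM instead, the ratio of resident to infiltrating was 2.57, 2.20 and 2.21 in NcoR1ΔHep, against 2.15, 1.71 and 2.04 in flox. All 3 NcoR1ΔHep ratios were above all flox ratios, by a narrow margin, and this was not tested. In that form the log2 difference had the other sign (0.24). Without Lyz2 the same ratio was 14.0, 20.7 and 15.1 in NcoR1ΔHep, against 21.2, 12.0 and 12.8 in flox, and the groups overlapped. The sign of the resident to infiltrating difference thus depended on whether genes were averaged on the log scale or summed in FPKM.

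**Figure D5:**
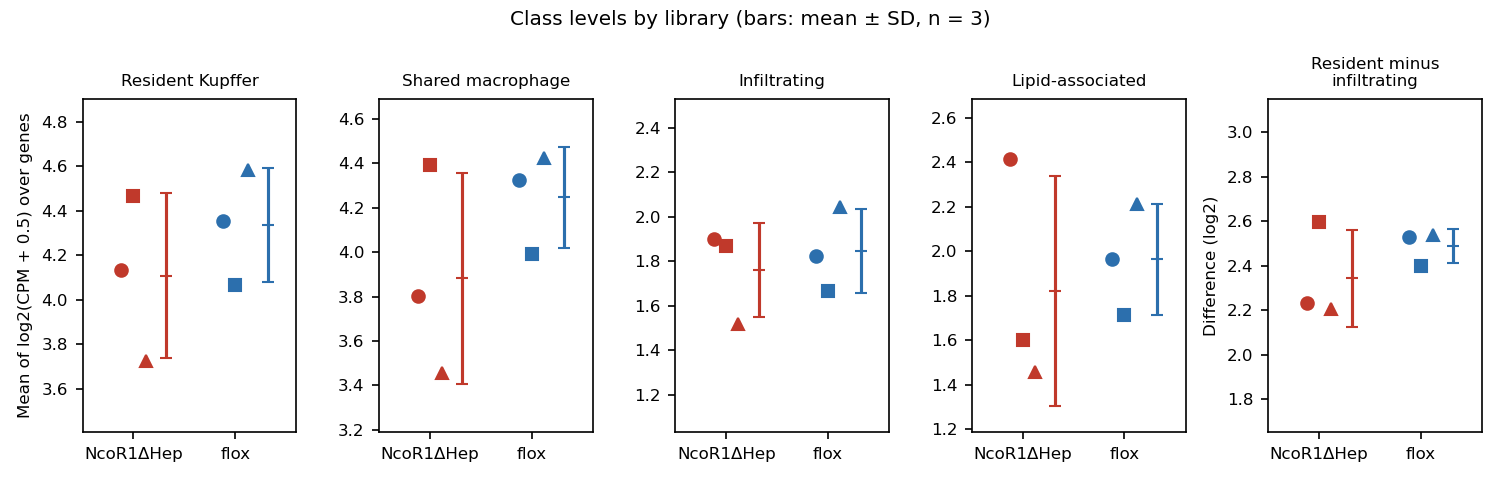
Mean log2(CPM + 0.5) over the genes of each class, and resident minus infiltrating, for each library (circle, square and triangle for replicate 1, 2 and 3; NcoR1ΔHep red, flox blue), with the mean ± SD of each group (n = 3). Every panel spans the same height on the log2 scale, and the groups overlap in all of them.

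Lipid-associated macrophage genes were highest in NcoR1ΔHep 1 for 2 of 3. Trem2, a lipid-sensing receptor, had 44, 8 and 11 counts in NcoR1ΔHep, against 17, 4 and 15 in flox. Its log2 fold change was 0.82 (SE 0.77) and -0.19 without NcoR1ΔHep 1, so the direction rested on that library. Lgals3, galectin-3, was at 7.36, 4.29 and 2.90 FPKM in NcoR1ΔHep, against 5.45, 3.97 and 6.06 FPKM in flox (-0.09, SE 0.33; -0.44 without NcoR1ΔHep 1, 0.11 without NcoR1ΔHep 3 and 0.06 without flox 3). Gpnmb, a lysosome-linked glycoprotein of lipid-laden macrophages, was at 2.47, 1.47 and 1.05 FPKM in NcoR1ΔHep, against 2.45, 2.05 and 2.93 FPKM in flox, with NcoR1ΔHep 2 and 3 below all flox libraries (-0.58, SE 0.31; -0.89 without NcoR1ΔHep 1).

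Other genes of the macrophage pathway were read from lists set for this purpose. Of 10 macrophage transcription factors, 4 were higher and 6 lower (median -0.01, 0 called). Tfec, a factor of the microphthalmia family found in macrophages, was at 0.320, 0.232 and 0.292 FPKM in NcoR1ΔHep, against 0.673, 0.404 and 0.547 FPKM in flox, with all NcoR1ΔHep libraries below all flox libraries (-0.90, SE 0.34). It had the smallest p of its list, and 4.95% of all genes tested were lower without overlap. Spi1, which encodes PU.1, was at 3.39, 3.48 and 1.75 FPKM in NcoR1ΔHep, against 3.30, 1.83 and 3.46 FPKM in flox, lowest in NcoR1ΔHep 3 and flox 2 (chosen after its values were seen). Of 17 other macrophage genes, 6 were higher and 11 lower (median -0.11, 0 called). Cybb, the catalytic chain of the phagocyte oxidase, was at 2.32, 3.59 and 2.85 FPKM in NcoR1ΔHep, against 6.43, 4.20 and 3.45 FPKM in flox, with NcoR1ΔHep 1 and 3 below all flox libraries and NcoR1ΔHep 2 above flox 3 (-0.64, SE 0.27), and Siglec1, the sialoadhesin of resident macrophages, at 0.736, 1.28 and 0.534 FPKM in NcoR1ΔHep, against 1.98, 0.916 and 1.57 FPKM in flox (-0.78, SE 0.36).

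Among 6 growth factors and niche ligands, 3 were higher and 3 lower (median -0.09, and -0.30 without NcoR1ΔHep 1; 0 called). Bmp10, which encodes a secreted bone morphogenetic protein, was at 3, 4 and 3 counts in NcoR1ΔHep, against 49, 14 and 15 in flox. The groups did not overlap, where 4.95% of all genes tested were lower without overlap in FPKM. The log2 fold change was -2.83 (SE 0.67, edgeR quasi-likelihood test with Benjamini-Hochberg adjustment, adjusted p = 0.931). Bmp10 had the smallest p of its list, and the size of its fold change rests on few counts. Tgfb1, which encodes TGF-beta 1, was at 3.61, 3.75 and 1.73 FPKM in NcoR1ΔHep, against 5.31, 2.28 and 4.35 FPKM in flox (-0.37, SE 0.35). Csf1, the ligand of the CSF1 receptor, was at 3.79, 1.30 and 1.21 FPKM in NcoR1ΔHep, against 1.16, 0.630 and 2.69 FPKM in flox, highest in NcoR1ΔHep 1 (chosen after its values were seen). Of 7 chemokines that draw monocytes, 2 passed the count filter, 1 higher and 1 lower. Ccl2 had 31, 50 and 10 counts in NcoR1ΔHep, against 35, 21 and 43 in flox, with overlapping groups (-0.11, SE 0.59). Cx3cl1, fractalkine, had 25, 33 and 2 counts in NcoR1ΔHep, against 18, 9 and 30 in flox.

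Markers of other cells that a liver sample can hold were measured beside the infiltrating genes. Red cell genes summed to 286, 297 and 307 FPKM in NcoR1ΔHep, against 479, 334 and 334 FPKM in flox, below all flox libraries in all 3 NcoR1ΔHep libraries, with 2 of 5 genes higher and 3 lower in the fit (median -0.48, and -0.27 without NcoR1ΔHep 1) and none called. The largest part of that sum was Hbb-bs (mean 144 FPKM in NcoR1ΔHep and 208 FPKM in flox), whose groups overlapped on TMM-scaled CPM. Hba-a1 and Hba-a2 were the 2 higher genes (0.11 and 0.21), and Hbb-bs, Hbb-bt and Alas2 the 3 lower. The part of blood content in the monocyte values was not tested. Neutrophil markers summed to 7.30 to 13.2 FPKM in NcoR1ΔHep and 3.63 to 24.0 FPKM in flox, with 4 of 10 tested. The median log2 fold change of the 4 was -0.14, and 0.04 without NcoR1ΔHep 1. Ly6g was at 0 counts in every library but flox 3, which had 1 count. Summed levels of the other lists were 0.743 to 2.41 FPKM in NcoR1ΔHep and 0.774 to 1.62 FPKM in flox for 7 dendritic cell genes, 1.88 to 4.42 FPKM in NcoR1ΔHep and 2.67 to 3.93 FPKM in flox for 9 T and NK cell genes, 2.42 to 4.32 FPKM in NcoR1ΔHep and 2.52 to 3.21 FPKM in flox for 5 B cell genes and 1.20 to 4.23 FPKM in NcoR1ΔHep and 2.26 to 3.19 FPKM in flox for 4 platelet genes. Their median log2 fold changes were 0.01, -0.03, 0.34 and 0.23, and without NcoR1ΔHep 1 they were -0.36, -0.67, 0.21 and -0.19. Cd4, the T helper co-receptor, also carried by some macrophages, had 13, 28 and 20 counts in NcoR1ΔHep, against 57, 51 and 32 in flox, and Jchain, of plasma cells, had 141, 83 and 105 counts in NcoR1ΔHep, against 26, 78 and 51 in flox. The groups did not overlap in either, where 7.56% of all genes tested did not overlap in FPKM. Both genes had the smallest p of their lists. Of the 8 T and NK cell genes tested, 4 were higher and 4 lower. Of the 5 B cell genes, 4 were higher and 1 lower. Stellate cell genes had a median of 0.11 (0.36 without NcoR1ΔHep 1) and hepatocyte genes one of 0.10 (0.07 without it), and 0 genes of these lists were called.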

How the data were processed

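Bulk mouse liver RNA in 6 libraries was analysed. The deposited count table holds whole-number counts for each gene symbol and library, and the deposited FPKM table, per its values, is the same counts scaled by gene length and library total. A SMARTer mRNA kit was used for library preparation, per the labels' protocols. The builds GRCm38, mm10 and hg38 stand in the submitters' processing notes without a role; for the aligner, counter and strand, nothing was given in the sources used here.

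Genes were kept with edgeR's filterByExpr (minimum count 10, minimum total 15; 13205 genes, 99.95% of counts) and compared with its quasi-likelihood test on TMM factors (edgeR 4.0.16 in R 4.3.3). The test was two-sided, and p-values were adjusted by Benjamini-Hochberg over all genes with a threshold of 0.05. Class levels are means of log2(CPM + 0.5), without a test. The code was tested on simulated data. DESeq2 1.42.0, limma 3.58.1 (voom, and log2 of FPKM), other factors and filters, a replicate block and leaving out each library were the alternatives.

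The rule for named genes was all 32 members, Ncor1, sex-linked genes, close paralogs and the 2 genes of each other list with the smallest p; 1 of these is not reported here. For the lists of other cells, only those of endothelial cells and the leading T and B cell genes are printed; other exceptions are said to be chosen after their values were seen. The members and lists were chosen with earlier results of these data known. Red cell, platelet, neutrophil, lymphocyte, dendritic, endothelial, stellate and hepatocyte markers were measured as well. No protein table was used here. Exons of Folr2, Fcna, Csf1r, Itgam, Cx3cr1 and Ms4a6c overlap another gene in GENCODE M21, so their counts are less certain.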

Additional observations from a re-analysis of the deposited data

How the results depend on the processing

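The count of members past the threshold was 0 in all 16 alternatives to the edgeR fit, and the count over all genes was 0 in each except DESeq2, which called 5 genes, none of them a member; 3 alternatives with a stricter filter or filtered FPKM covered 26 of the members, the others all 32. At an unadjusted p under 0.05, 0 to 8 members were seen, the 8 without NcoR1ΔHep 2. The sign of the log2 fold change differed from that with all libraries in at most 3 of the members covered under another tool, scaling or filter, and in 3 to 8 of 32 when 1 library was left out. With the replicate number as a block, 0 genes and 0 members were called. Same-numbered libraries did not deviate together (correlations of 0.02, -0.37 and -0.51 over 13205 genes), so the numbers were not treated as pairs. Some libraries of different number and genotype had positive correlations: NcoR1ΔHep 3 with flox 2 (0.61), NcoR1ΔHep 2 with flox 3 (0.31) and NcoR1ΔHep 1 with flox 3 (0.21). The remaining pairs were between -0.26 and 0.02. Deviations from a group mean sum to 0 within each group, so correlations of both signs are built in. Whether these libraries share anything was not tested.

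Class differences depended on single libraries and on the summary. Leaving out 1 library gave -0.41 to -0.04 for the resident class, -0.62 to -0.16 for the shared class, -0.18 to 0.03 for the infiltrating class, -0.42 to 0.04 for the lipid-associated class and -0.27 to -0.08 for resident minus infiltrating. The infiltrating class was above 0 without NcoR1ΔHep 3 (0.03) or flox 3 (0.01), and the lipid-associated class without NcoR1ΔHep 3 (0.04). As log2 of summed FPKM, the infiltrating class differed by -0.50 and resident minus infiltrating by 0.24. Lyz2 held 81.7% to 89.8% of the infiltrating sum, and its own log2 fold change was -0.45. The cause of these differences was not tested. Without Marco and Cd5l, an alternative chosen after seeing the data, the resident class differed by -0.16. Depth limits the 8 members that had at most 100 counts in every library.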
